A study of Saccharomyces cerevisiae with 70 samples.

Results

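The samples described here are 10 of the 70 arrays of a series on oxidative stress in the budding yeast Saccharomyces cerevisiae: 6 arrays of a hydrogen peroxide course taken at 55, 63, 70, 77 and 85 min, set against 4 arrays of the same course taken at 0, 14 and 20 min. They were chosen by the dose and the minutes in their titles, but the limits of the windows were set with earlier results of these data known. The times of 63 and 20 min were each hybridised again, and the repeated arrays were averaged first, which left 5 times in the later window and 3 in the earlier one. The series held 4 such courses, 23 arrays of this one (0.24 mM hydrogen peroxide, called peroxide I here), 14 arrays of a course in 2 mM menadione (menadione I), and 33 arrays of a later peroxide course and a later menadione course in strain DBY8724, whose doses the labels do not give. On every array the Cy5 channel held RNA of cells that had been arrested with the mating pheromone alpha factor and released, and the Cy3 channel held RNA of one unsynchronised batch culture at 0.7 OD, and each deposited value was read as the log2 ratio of the synchronised sample to that reference, although the sources used here state neither its log base nor its sign. The titles of the 10 arrays thus shared the oxidant and its dose, the cells shared the pheromone arrest, and the labelled time differed. Whether the cells of 0, 14 and 20 min had yet met the oxidant was not given, so treatment itself may differ between the windows. The strain of peroxide I, the minute at which the oxidant was added and a course without oxidant were not given in the labels, so that time in peroxide, time after release and movement through the cell cycle cannot be told apart. The labels name no replicate cultures within a course, so the times of a window stand in for replicates, and every p-value below measures the spread between times, real change included, and not the spread between cultures.

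Yeast cells meet hydrogen peroxide with enzymes that reduce it (catalases, peroxiredoxins, glutathione peroxidases) and with the thioredoxin and glutathione systems, which recharge those enzymes with electrons from NADPH. The transcription factor Yap1 is oxidised by peroxide, stays in the nucleus and turns on much of this set, while Msn2 and Msn4 switch on a broader group of genes that many stresses share. The same stresses are known to lower the mRNAs for ribosomes and their assembly, which take up most of the transcription of a growing cell.

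The arrays of the 55 to 85 min window resembled each other and not those of the first 20 min. Pearson's r over genes lay between 0.41 and 0.88 for the 15 pairs within the window, and between 0.74 and 0.88 among the arrays of 55, 70, 77 and 85 min, against 0.05 to 0.22 for the 6 pairs of the first 20 min. Between the windows it ran from -0.30 to 0.23. Arrays just outside the window were also like it, with r of 0.73 for 49 and 55 min, 0.78 for 77 and 105 min and 0.77 for 85 and 112 min. These r describe arrays that share 1 reference and 1 platform. The SD over genes was 0.79 to 1.12 per array in the window, 1.09 at 49 min and 0.51 to 0.66 in the first 20 min. Of the repeated times, the first 63 min array and its repeat correlated at only 0.41, the first 63 min array and the 20 min repeat at -0.30 over genes (-0.18 over all probes), and the 20 min repeat was most like the 155 min array (r = 0.55), so counts are also given without them. Of 6 marker genes of the pheromone response, among them FUS1 and FIG1, 5 were above 0 at 0 min with a median of 2.03; the median was -0.03 at 14 min and lay between -0.51 and 0.29 on the arrays of the window. The 6 a-cell markers had medians of -1.51 to -0.56 in the window, against -1.18 to 0.01 in the first 20 min. Of these 6 only MFA1 was lower at a limma adjusted p under 0.05, and the other differences ran from -1.44 (MFA2) to 0.10 (STE2). Of the alpha-cell markers, MF(ALPHA)2 was lower by -2.12 ± 0.33 (limma adjusted p = 0.000187), while MF(ALPHA)1, STE3 and SAG1 did not pass. Since all these values are ratios, they do not show whether a gene is expressed. In RNA from whole cultures, fewer cells that express a gene and less RNA per cell cannot be told apart.

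Between 55 and 85 min all 6 catalase, dismutase and cytochrome c peroxidase genes and 24 of 37 general stress genes were higher than in the first 20 min, and 124 of 133 ribosomal protein genes were lower. With limma fitted to the 5 windows of the course, 404 of 5551 genes rose (7.28%) and 496 fell (8.94%) at an adjusted p under 0.05, and 16.2% changed in either direction. The values of the 5 later times lay wholly above those of the 3 earlier times for 347 of the 404 (6.25% of all genes tested), and wholly below them for 431 of the 496 (7.76%). The median difference over all genes was 0.03. Without 14 min 237 genes rose and 413 fell. Of the genes that rose, 35 had only a systematic name, and of those that fell, 15. Without both arrays of 20 min and of 63 min the counts were 398 higher and 390 lower, and without the 20 min repeat and the first 63 min array 450 higher and 433 lower. Over 22 alternative settings the catalase, general stress and ribosomal protein counts ran from 3 to 6, 16 to 27 and 111 to 128.

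**Figure D1:**
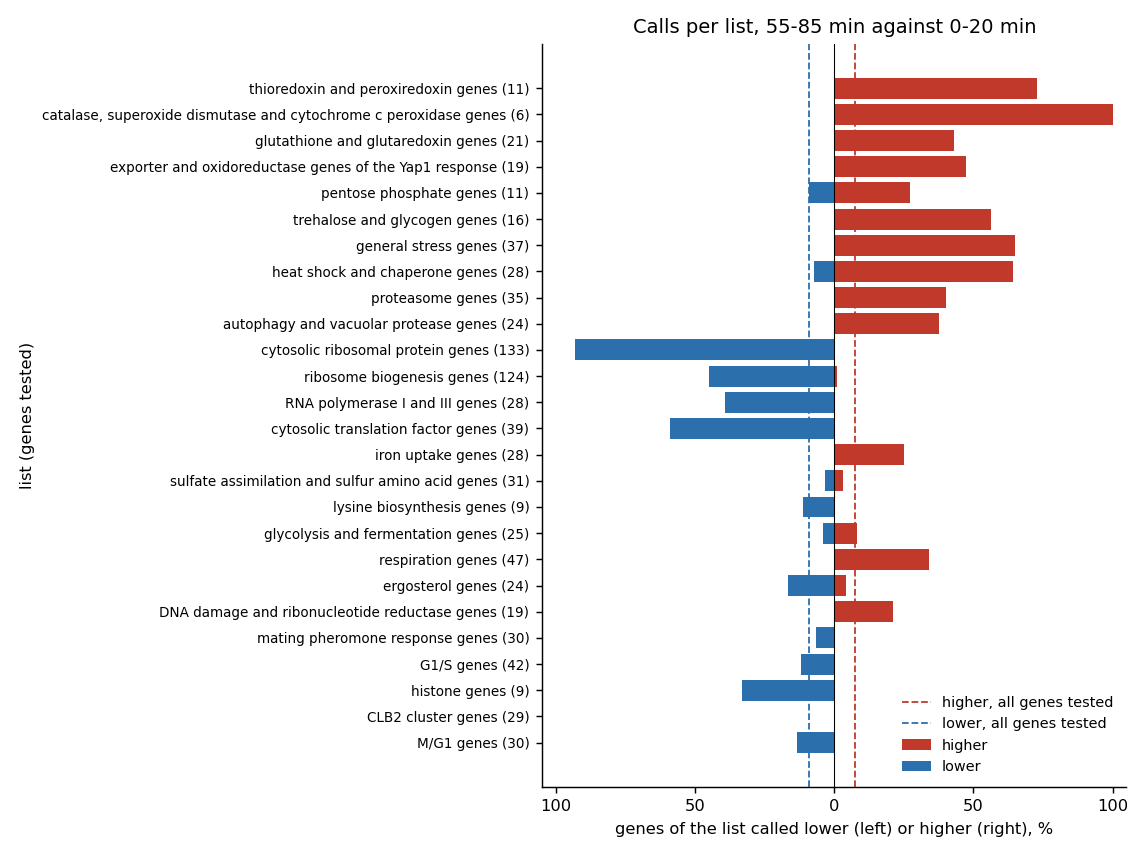
Share of the genes of each of 26 lists that were called higher (red, right) or lower (blue, left) at 55 to 85 min against 0 to 20 min, in % of the genes tested, whose number stands in brackets. Dashed lines mark the shares over all genes tested, 7.28% higher and 8.94% lower.

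Of the 11 thioredoxin and peroxiredoxin genes 8 rose and none fell, and their median difference was 2.19, against 0.03 over all genes. TSA2, a cytosolic peroxiredoxin that is scarce in unstressed cells, had log2 ratios of 7.36, 4.28, 6.94, 6.25 and 5.57 at 55, 63, 70, 77 and 85 min, against -0.67, 0.62 and 0.50 at 0, 14 and 20 min. The difference was 5.93 ± 0.79 (SE, limma adjusted p = 4.67e-05). TSA2 was among the largest rises, which were named by a rule that allowed no overlap between the windows. PRX1, the mitochondrial peroxiredoxin, read 5.08, 2.62, 4.91, 5.03 and 4.72 in the window, against -0.11, 0.37 and 0.38 before it, a difference of 4.26 ± 0.57. TRX2, the cytosolic thioredoxin under Yap1 control, read 3.67, 3.56, 3.45, 2.99 and 3.67, against -0.42, 0.16 and -0.25, and held almost the same level at all 5 later times. Its difference was 3.64 ± 0.37 (adjusted p = 3.86e-06), while that of TRX1, the other cytosolic thioredoxin, was 0.35 ± 0.24 and was not called. TRR1, the reductase that recharges both, differed by 3.24 ± 0.41, and TSA1, the abundant cytosolic peroxiredoxin, by 2.51 ± 0.31.

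All 6 genes for catalases, superoxide dismutases, the copper chaperone of one of them and cytochrome c peroxidase rose, with a median difference of 2.47. The number called ran from 3 to 6 over the 22 settings. CCP1, the cytochrome c peroxidase of the mitochondrial intermembrane space, had ratios of 4.21, 2.22, 3.02, 3.24 and 3.37 in the window, against 0.03, 0.05 and 0.00 in the first 20 min. The earlier values were next to the reference and the later ones all far above it, a difference of 3.18 ± 0.47 (limma adjusted p = 0.000119). SOD1 and SOD2, the cytosolic and the mitochondrial superoxide dismutase, differed by 2.50 ± 0.34 and 2.44 ± 0.35. CTT1, the cytosolic catalase, stood at 4.64 at 55 min and between 1.46 and 2.68 at the other 4 times of the window, against -0.33, 0.08 and 0.20 before. Its difference was 2.56 ± 0.72 with an adjusted p of 0.0165, which became 0.0649 without 0 min, 0.0504 without 14 min and 0.213 when only 77 and 85 min made up the window.

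In the glutathione and glutaredoxin list 9 of 21 genes rose and none fell (median difference 0.76, with 6 to 11 higher over the 22 settings). GPX2, a glutathione peroxidase homologue that uses thioredoxin in yeast, had ratios of 4.80, 3.88, 4.10, 3.98 and 3.68, against -0.74, 0.11 and 0.17. GRX2, a glutaredoxin of cytosol and mitochondria, had 4.22, 3.32, 3.75, 3.58 and 3.28, against 0.17, 0.38 and -0.10. Both were high and even across the window, and differed from the first 20 min by 4.24 ± 0.48 and 3.48 ± 0.29 (limma adjusted p = 1.38e-05 and 3.25e-07). ECM4, an omega-class glutathione transferase, differed by 3.66 ± 0.61, and GSH1, which makes the first bond of glutathione, by 1.11 ± 0.32 (adjusted p = 0.0181). The call of GSH1 was lost without 0, 14 or 55 min, at adjusted p of 0.0618, 0.0819 and 0.0526, and with the window of 77 and 85 min alone, at 0.371.

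The list of drug exporters and oxidoreductases that answer to Yap1 had 9 of 19 genes higher and none lower (median difference 1.48). Between 5 and 10 of them were called higher over the 22 settings. OSI1, a gene induced by oxidative stress, read 7.02, 4.04, 5.12, 5.25 and 4.83 in the window, against 0.24, 0.33 and -0.13 before it, a difference of 5.10 ± 0.89 (limma adjusted p = 0.000426). GRE2, a methylglyoxal reductase, differed by 3.34 ± 0.42, AAD15, of the aryl-alcohol dehydrogenase family, by 2.73 ± 0.50, and OYE3, an NADPH dehydrogenase, by 2.58 ± 0.60. The call of OYE3 was lost with the window of 77 and 85 min alone (adjusted p = 0.072). PDR5 and SNQ2, which encode drug efflux pumps, had differences of -0.94 ± 0.45 and 0.11 ± 0.20 and were not called. The AAD genes are close copies, as are many ribosomal protein, histone, SSA, SSB and TDH pairs, and their probes may share signal.

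Of the 11 genes of the pentose phosphate pathway, the main source of NADPH for these systems, 3 rose and 1 fell, with a median difference of 0.12. SOL4, a 6-phosphogluconolactonase, ZWF1, the glucose-6-phosphate dehydrogenase that opens the pathway, and NQM1, a transaldolase homologue, differed by 2.75 ± 0.43, 2.51 ± 0.42 and 2.41 ± 0.52. RKI1, the ribose-5-phosphate isomerase of the non-oxidative branch, fell: -2.56, -1.54, -1.67, -2.14 and -1.98 in the window, against 0.07, 0.36 and 0.77 before, a difference of -2.38 ± 0.37 (limma adjusted p = 0.000181). The mRNA of the oxidative entry step and that of the isomerase next to ribose phosphate moved in opposite directions at the same 5 times.

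Of the regulators of these genes, YAP1 and MSN4 were called. YAP1 had ratios of 1.92, -0.08, 1.04, 1.31 and 1.00, against -0.11, -1.03 and 0.00, so that the 63 min value overlapped with the earlier times. Its difference of 1.42 ± 0.48 (limma adjusted p = 0.0476) was called under 10 of 22 alternative settings and had an adjusted p of 0.231 without 14 min. MSN4 differed by 0.92 ± 0.28 (adjusted p = 0.0273, 0.0922 without 14 min, 0.171 without 20 min, and called under 13 of the 22 settings). SKN7, which acts with Yap1, MSN2, HSF1, the heat shock factor, and RPN4, the activator of proteasome genes, had differences of -0.06 ± 0.25, 0.47 ± 0.34, 0.27 ± 0.24 and 0.70 ± 0.28, and none was called. RPN4 was called under 3 of the 22 settings. Its difference was 0.85 without 63 min (limma adjusted p = 0.0342) and 0.99 without both arrays of 20 and 63 min (0.0395). Without the 20 min repeat and the first 63 min array it was 0.82 (limma adjusted p = 0.0435). The remaining Yap family members listed, CAD1, CIN5 and YAP5, were not called either. Factors such as Yap1 and Msn2 act through their place in the cell, which mRNA does not show.

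**Figure D2:**
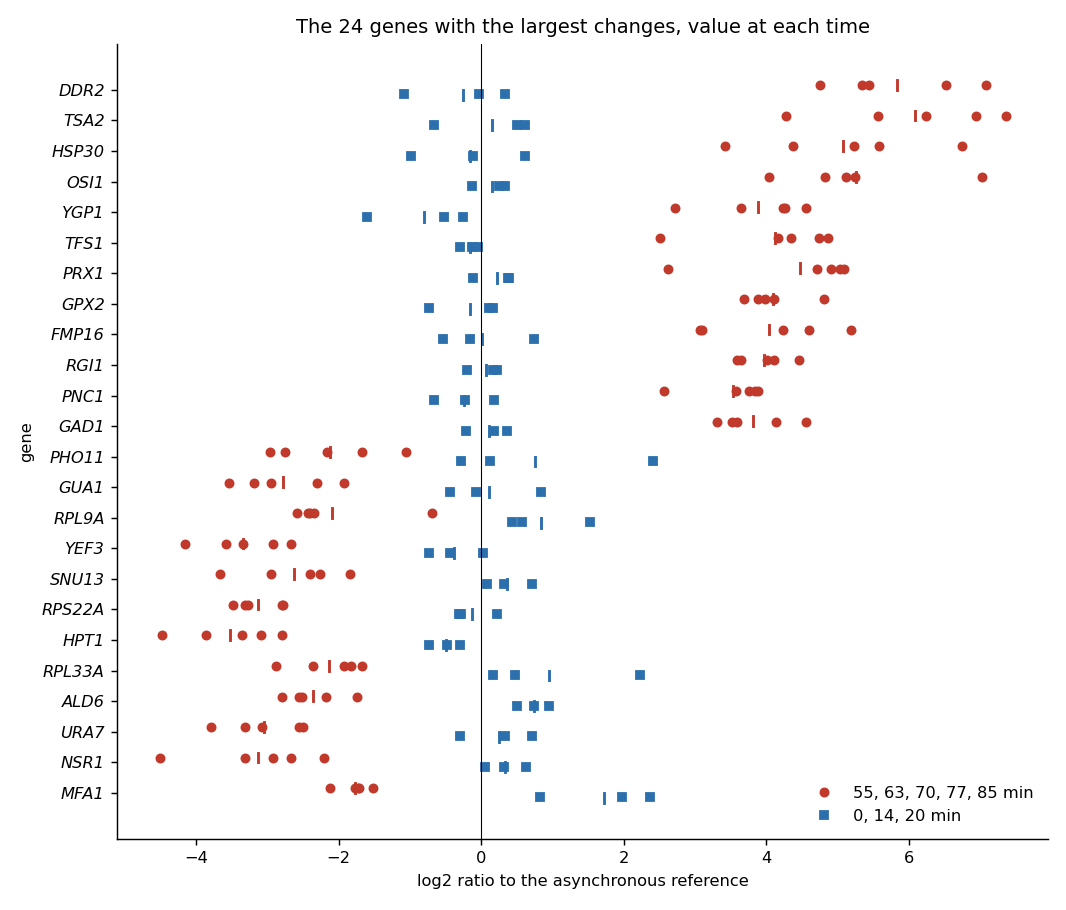
Log2 ratio to the asynchronous reference of the 12 genes with the largest rises and the 12 with the largest falls, at each of the 5 times of 55 to 85 min (red circles) and the 3 times of 0 to 20 min (blue squares); short vertical lines are means. The genes were chosen by this difference, and by their rule the circles and squares of a gene do not overlap.

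The general stress list, the genes shared by many stresses, had 24 of 37 members higher and none lower, with a median difference of 1.58. Their number ran from 16 to 27 over the 22 settings. DDR2, a small stress protein gene with repeated Msn2/Msn4 sites, had the largest rise of all genes that met the naming rule: 6.52, 4.76, 7.08, 5.44 and 5.34 in the window, against 0.33, -0.04 and -1.09 in the first 20 min, a difference of 6.09 ± 0.75 (limma adjusted p = 3.12e-05). YGP1, a secreted glycoprotein of nutrient-limited cells, differed by 4.68 ± 0.54, TFS1, an inhibitor of the vacuolar carboxypeptidase Y, by 4.28 ± 0.53, PNC1, a nicotinamidase, by 3.77 ± 0.61, and GAD1, the glutamate decarboxylase, by 3.71 ± 0.60. The remaining named rises were FMP16, a gene of the mitochondrial proteome (4.02 ± 0.57), and RGI1, a regulator of growth on respired carbon (3.90 ± 0.60). RGI1 stayed between 3.58 and 4.46 at all 5 later times, against -0.20 to 0.22 earlier.

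Storage carbohydrate genes rose in 9 of 16 cases, with none lower and a median difference of 1.07. The number called higher ran from 3 to 11 over the 22 settings, and the median from 0.88 to 1.28. TPS1, the trehalose-6-phosphate synthase, read 4.39, 2.80, 3.19, 3.68 and 2.28, against -0.25, -0.30 and -0.09, a difference of 3.48 ± 0.48 (limma adjusted p = 7.3e-05). GSY2, the main glycogen synthase, differed by 3.15 ± 0.54, PGM2, a phosphoglucomutase that feeds both products, by 3.45 ± 0.86, and TPS2, the trehalose phosphate phosphatase, by 2.47 ± 0.55. The calls of PGM2 and TPS2 were lost with the window of 77 and 85 min alone, at adjusted p of 0.0536 and 0.0768. In the glycolysis and fermentation list 2 of 25 genes rose and 1 fell, near the shares over all genes, and the median difference was 0.00. HXK1, the hexokinase of glucose-poor cells, rose by 3.55 ± 0.57, TDH1, the glyceraldehyde-3-phosphate dehydrogenase of non-growing cells, by 1.21 ± 0.34, and HXK2, the hexokinase of glucose growth, fell (-1.07 ± 0.34). The calls of HXK2 (adjusted p = 0.031) and TDH1 were lost without 14 min, at adjusted p of 0.113 and 0.102, and that of HXK2 also without 20, 70, 77 or 85 min (0.219, 0.0837, 0.0606 and 0.0536).

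Among heat shock and chaperone genes 18 of 28 rose and 2 fell (median difference 1.19, with 10 to 19 higher over the 22 settings). HSP30, a small plasma membrane protein that restrains the proton pump, had ratios of 6.75, 4.38, 5.57, 5.23 and 3.42, against 0.62, -0.11 and -0.99, a difference of 5.23 ± 0.90 (limma adjusted p = 0.000393). HSP42, a small heat shock protein, and HSP104, the disaggregase, differed by 2.94 ± 0.65 and 2.82 ± 0.57. Without the times before 77 min, HSP42 had an adjusted p of 0.0563. The 2 genes that fell were SSB1 and SSB2, chaperones bound to translating ribosomes. SSB2 read -1.94, -3.30, -4.02, -2.89 and -2.78 in the window, against -0.72, -0.71 and 0.47, and differed by -2.67 ± 0.49 (adjusted p = 0.000738), while SSB1, named after its value was seen, differed by -1.49 ± 0.31.

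In the proteasome list 14 of 35 genes rose and none fell (median difference 0.78), by smaller steps than the stress genes: PRE8, a core particle subunit, read 1.50, 0.76, 1.26, 1.37 and 1.30, against -0.14, -0.15 and -0.02, a difference of 1.34 ± 0.24 (limma adjusted p = 0.000582). UMP1, a chaperone of core particle assembly, differed by 1.16 ± 0.29. The number of proteasome genes called ran from 4 to 20 over the 22 settings, while the median stayed between 0.58 and 0.97. Of the autophagy and vacuolar protease genes 9 of 24 rose and none fell (median 0.59, with 4 to 10 higher over the 22 settings), led by ATG8, the ubiquitin-like protein of the autophagosome membrane (2.91 ± 0.45), and PEP4, the vacuolar aspartyl protease that activates the others (2.01 ± 0.36). ATG1, the kinase that starts autophagy, differed by 1.68 ± 0.41, and its call was lost without 20 min (adjusted p = 0.0705).

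Respiration genes were higher in 16 of 47 cases and lower in none (median difference 0.63), with 8 to 21 higher over the 22 settings. CYC1, the main cytochrome c and the electron donor of CCP1, read 4.13, 2.71, 3.14, 3.21 and 3.07 in the window, against -1.45, 0.32 and 0.14, a difference of 3.58 ± 0.46 (limma adjusted p = 3.67e-05). IDH2 and IDH1, the subunits of mitochondrial isocitrate dehydrogenase, differed by 2.43 ± 0.47 and 2.15 ± 0.43. Among iron uptake genes 7 of 28 rose and none fell (median 0.51), with FIT3, a cell wall mannoprotein that holds siderophore iron, at 4.51, 2.18, 3.85, 4.29 and 3.94, against 0.04, 0.83 and 1.89. The lowest later value lay just above the highest earlier one, and the difference was 2.83 ± 0.58 (adjusted p = 0.00175). ISU2, a scaffold for iron-sulfur clusters, differed by 2.24 ± 0.33, and AFT1, the iron regulator itself, by -0.35 ± 0.22 without a call.

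In the DNA damage and ribonucleotide reductase list 4 of 19 genes rose and none fell (median difference 0.50), with 1 to 7 higher over the 22 settings. In the main fit 4 genes were called. They were UBI4, the polyubiquitin gene, which many stresses raise (1.96 ± 0.41, limma adjusted p = 0.00174), DDI1, a ubiquitin-binding protein gene that shares a promoter with MAG1 (1.10 ± 0.31), MAG1, a DNA glycosylase (0.98 ± 0.26), and RFX1, the repressor of damage-induced genes (0.82 ± 0.25). Without 20 min the adjusted p was 0.0585 for DDI1, 0.0657 for MAG1 and 0.0947 for RFX1, and without 0 min it was 0.0625 for DDI1 and 0.187 for RFX1. RNR3, the ribonucleotide reductase subunit that responds most to DNA damage, read between -0.60 and 0.40 in the window, against -0.58 to 0.43 before, and the groups overlapped over their whole range. HUG1, another damage marker, was not measured here.

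Cytosolic ribosomal protein genes made up the largest group of falls. Of 133 tested, 124 fell and none rose, with a median difference of -2.09, and under the 22 settings 111 to 128 fell and the median ran from -2.27 to -1.72. RPS22A, of the small subunit, had ratios of -2.80, -3.32, -3.49, -3.28 and -2.78, against -0.29, 0.22 and -0.31, a difference of -3.01 ± 0.32 (limma adjusted p = 6.26e-06). RPL9A, of the large subunit, read -0.69 at 55 min and -2.58 to -2.34 at the other 4 times, against 1.52, 0.44 and 0.57, and differed by -2.93 ± 0.53. RPL33A read -2.87 to -1.68 in the window, against 2.23, 0.16 and 0.47 at 0, 14 and 20 min, and differed by -3.09 ± 0.82, and without the high 0 min value its difference of -2.45 was not called (adjusted p = 0.0854). The 9 genes not called were RPL10, RPL22B, RPL25, RPL41A, RPL41B, RPS14A, RPS24A, RPS30B and RPS9A. All 9 had negative differences, from -2.24 ± 0.80 for RPS9A to -0.31 ± 0.18 for RPL22B. RAP1, FHL1, IFH1 and SFP1, which govern ribosomal protein promoters, had mRNA differences between -0.62 and -0.24, none called.

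Genes for ribosome assembly fell in 56 of 124 cases (median difference -0.99), and in 26 to 67 over the 22 settings. ERB1, an assembly factor of the large subunit, was the only one of the list called higher, by 1.33, and is named after its value was seen. NSR1, a nucleolin-like protein of pre-rRNA processing, read -4.51, -2.67, -3.32, -2.92 and -2.21, against 0.63, 0.32 and 0.06, with its lowest value at 55 min. Its difference was -3.46 ± 0.51 (limma adjusted p = 0.000102). SNU13, a core protein of box C/D snoRNPs and of the spliceosome, differed by -2.99 ± 0.50. Of the genes of RNA polymerases I and III, which make rRNA, 5S RNA and tRNA, 11 of 28 fell and none rose (median -1.06), led by RPA49 (-1.96 ± 0.36) and RPC31 (-1.94 ± 0.38).

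Translation factor genes fell in 23 of 39 cases, with none higher and a median difference of -1.18, and in 11 to 26 cases over the 22 settings. YEF3, the fungal elongation factor 3, had ratios of -3.35, -3.59, -4.16, -2.67 and -2.93, against -0.74, -0.43 and 0.02, a difference of -2.96 ± 0.50 (limma adjusted p = 0.000317). EFB1, the exchange factor of elongation factor 1, differed by -2.12 ± 0.35. The named falls outside these lists included 3 genes of nucleotide synthesis: HPT1, the hypoxanthine-guanine phosphoribosyltransferase, at -4.49, -3.36, -3.87, -3.09 and -2.80, against -0.74, -0.47 and -0.30; URA7, the main CTP synthase, with a difference of -3.30 ± 0.46; and GUA1, the GMP synthase, with -2.89 ± 0.48. HPT1 differed by -3.02 ± 0.38 (adjusted p = 3.12e-05). The rule that named these 3 genes allowed no overlap between the windows, so their separation was fixed by the choice.

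ALD6, the cytosolic acetaldehyde dehydrogenase, which also yields NADPH, read -2.51, -1.74, -2.56, -2.18 and -2.80, against 0.95, 0.50 and 0.74, a difference of -3.09 ± 0.51 (limma adjusted p = 0.000273). Its 5 later values were even, and the rule that named it allowed no overlap with the 3 earlier ones. PHO11, an acid phosphatase gene, was at 2.41 at 0 min against -0.28 and 0.12 at the other early times, and differed by -2.88 ± 0.56, with an adjusted p of 0.0529 when 77 and 85 min alone made up the window. The sulfur amino acid list had 1 of 31 genes higher and 1 lower (median 0.09), below both shares over all genes, and the calls of STR3 (1.25 ± 0.40) and MET13 (-0.89 ± 0.29) were lost without 14 min (adjusted p = 0.319 and 0.193). Of 9 lysine genes, LYS4, the homoaconitase, alone was called (11.1% of the list, -1.16 ± 0.26), near the 8.94% of all genes that fell. Among 24 ergosterol genes 4 fell (16.7%) and 1, ERG9, rose (4.17%), against 8.94% and 7.28% of all genes (median -0.24). Of the 22 settings the call of ERG1 was kept under 14, that of ERG2 under 12 and that of ERG9 under 11.

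Several calls among genes of the cell cycle and of mating depended on a single early time. MFA1, which encodes the a-factor pheromone, had the largest fall by the naming rule: -1.52, -1.72, -1.71, -2.13 and -1.77 in the window, against 2.36, 1.97 and 0.82 in the first 20 min, a difference of -3.49 ± 0.31 (limma adjusted p = 4.59e-07). FIG1, a membrane protein of mating cells, was the other of 30 pheromone genes to fall (6.67% of the list), and it had a ratio of 3.62 at 0 min, so that the difference without 0 min was -0.67 (adjusted p = 0.241). Of 42 G1/S genes 5 fell (11.9%) and none rose (median -0.24), near the 8.94% of all genes that fell. CLN2, a G1 cyclin, read -2.59, -1.52, -1.88, -1.21 and -1.36, against -0.04, 0.89 and 1.02, a difference of -2.33 ± 0.39 (adjusted p = 0.000309), and CLB5 and CLB6, S-phase cyclins, differed by -0.88 ± 0.22 and -1.31 ± 0.24. The call of CLB5 was lost without 14 min (adjusted p = 0.0884), and so was that of MSH6, a mismatch repair gene (0.0623), while YOX1, a repressor of early cell cycle genes, differed by -2.34 ± 0.37.

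The histone genes differed widely within the early window itself: their median ratio was -2.52 at 0 min, 0.54 at 14 min and 1.41 at 20 min, and then -2.11, -1.76, -1.26, -1.29 and -0.76 at 55 to 85 min. HTA1, HTA2 and HTB2, for histones H2A and H2B, were called lower of 9 genes (median difference -1.31), although the 0 min value overlapped with the window. Without 0 min 8 of 9 were lower, with a median of -2.58, and without 14 min or without 20 min none was called, with medians of -0.88 and -0.59. Of 29 genes of the CLB2 cluster, which peak before mitosis, none was called in either direction, with a median of 0.02 and 2 higher at most under any setting. CLB2, the main mitotic cyclin, had a difference of -0.12 ± 0.30 (limma adjusted p = 0.852). Of 30 M/G1 genes 4 fell (13.3%), near the 8.94% of all genes that fell, and 0 to 5 fell over the 22 settings. The 4 were CTS1, DSE2 and SUN4, cell wall proteins of daughter cell separation, by -2.59 ± 0.58, -2.00 ± 0.53 and -1.76 ± 0.50, and MCM2, a replication helicase subunit, by -0.92 ± 0.23. The call of CTS1 was lost with 77 and 85 min alone as the window (-1.69, adjusted p = 0.133) and with arrays scaled to 1 spread (0.0547). The call of DSE2 was lost without 0 min (adjusted p = 0.137), that of SUN4 without 0 or 20 min (0.0921 and 0.0803), and that of MCM2 without 14 min (0.0617).

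**Figure D3:**
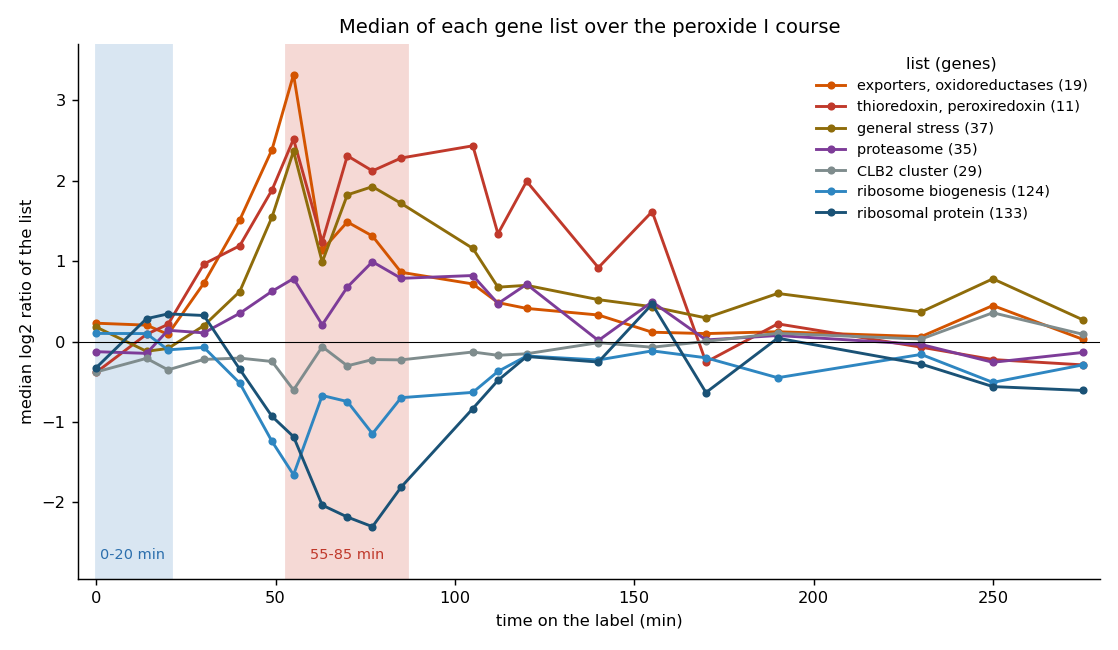
Median log2 ratio of 7 gene lists at each of 21 times of the peroxide I course, with repeated times averaged; the shaded bands are 55 to 85 min (red) and 0 to 20 min (blue). The list of exporters and oxidoreductases is highest at 55 min (3.32), thioredoxin and peroxiredoxin genes still stand at 2.43 at 105 min, and ribosomal protein genes are lowest at 77 min (-2.30).

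Within the window the groups followed different curves. Of the 404 genes that rose, 288 (71.3%) had their highest value at 55 min, and the median ratio of the 404 was 1.79 at 55 min, 0.71 at 63 min, 1.33 at 70 min, 1.39 at 77 min and 1.11 at 85 min. The lower median at 63 min went with the repeated pair of arrays that correlated poorly, and its part in the curve was not tested. The genes that fell were spread more evenly: 143 of the 495 with all 5 values were lowest at 55 min, 100 at 63 min, 127 at 70 min, 109 at 77 min and 16 at 85 min. Exporters and oxidoreductases had medians of 3.32, 1.14, 1.49, 1.31 and 0.86 at the 5 times, whereas thioredoxin and peroxiredoxin genes read 2.52, 1.24, 2.31, 2.12 and 2.28. Ribosome biogenesis genes were lowest at 55 min, with medians of -1.66, -0.67, -0.75, -1.15 and -0.70, and ribosomal protein genes later, with -1.18, -2.03, -2.18, -2.30 and -1.81. When 77 and 85 min were set against 55, 63 and 70 min, limma called 0 of 5544 genes, with 156 at an unadjusted p under 0.05 (2.81%), so these differences in shape are descriptions only. With array weights 2 genes were higher and 7 lower in the later times of the window.

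The window was also set against 30 to 49 min (3 times). This comparison and the next use the same 5 later times as the first, so their values are not independent of it. Of 5548 genes, 63 were higher (1.14%) and 182 lower (3.28%), 4.42% in all, and of the 133 ribosomal protein genes 97 fell and none rose, with a median difference of -1.57 against -0.01 over all genes. Of the defence lists, 2 of 11 thioredoxin and peroxiredoxin genes rose (18.2%, median 0.48) and 3 of 20 glutathione and glutaredoxin genes (15.0%, median 0.24), with none lower in either. Among them were TRX2 (1.47 ± 0.37, limma adjusted p = 0.0237), TSA1 (1.14 ± 0.31), ECM4 (2.19 ± 0.61) and the glutathione transferase GTT1 (2.35 ± 0.51, adjusted p = 0.00993). Without 30 min none of these 4 was called (adjusted p = 0.181, 0.24, 0.192 and 0.0866), and ECM4 and TSA1 also lost their calls without 40, 55, 70 or 77 min, at adjusted p between 0.0599 and 0.22, and TSA1 without 85 min (0.0755). None of the 6 catalase, dismutase and cytochrome c peroxidase genes was called (median 0.29). In the exporter and oxidoreductase list none rose and 1 fell (median 0.19), and GRE2 differed by 0.07 ± 0.42 and TRR1 by 0.07 ± 0.41 with limma adjusted p of 0.961 and 0.959. Of the general stress genes 6 of 37 rose (median 0.58). YGP1 read 0.02, 0.31 and 2.70 at 30, 40 and 49 min and differed by 2.87 ± 0.54 (adjusted p = 0.00392), and TFS1 by 2.68 ± 0.53.

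The other named genes of this comparison were not all stress genes. MSA1, an activator of G1 transcription, had ratios of -0.78, 0.51, -0.88, 0.42 and -0.25 in the window, against -1.58, -3.59 and -3.19 at 30, 40 and 49 min, a rise of 2.59 ± 0.37 (limma adjusted p = 0.00163), although it differed from the first 20 min by only -0.07 ± 0.37. MTG1, a GTPase of the mitochondrial ribosome, had the same course, with a rise of 2.25 ± 0.50. GPP1, a glycerol-3-phosphatase, had -0.57, -2.07, -2.97, -2.53 and -1.87, against 0.36, 1.20 and -0.08, a fall of -2.50 ± 0.44, and NCS2, which modifies tRNA wobble uridines, fell by -2.49 ± 0.39. RPL11B and HTA2 fell by -2.39 ± 0.40 and -2.35 ± 0.60. The call of HTA2 was lost without 30, 40, 70 or 77 min (adjusted p = 0.168, 0.0871, 0.0629 and 0.0581), that of TFS1 without 30 min (0.0605), and those of MTG1 and HTA2 without the first 63 min array (0.0589 and 0.0575). The count of 245 genes rested on single times: leaving out 30, 40, 49, 70 or 77 min in turn gave 109, 147, 510, 145 and 148 genes, and a fit of these groups alone gave 18. In that fit MSA1, GPP1, YGP1, TFS1, HTA2, TRX2, TSA1, ECM4 and GTT1 lost their calls (limma adjusted p between 0.0523 and 0.21). Without the first 63 min array the count was 179.

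**Figure D4:**
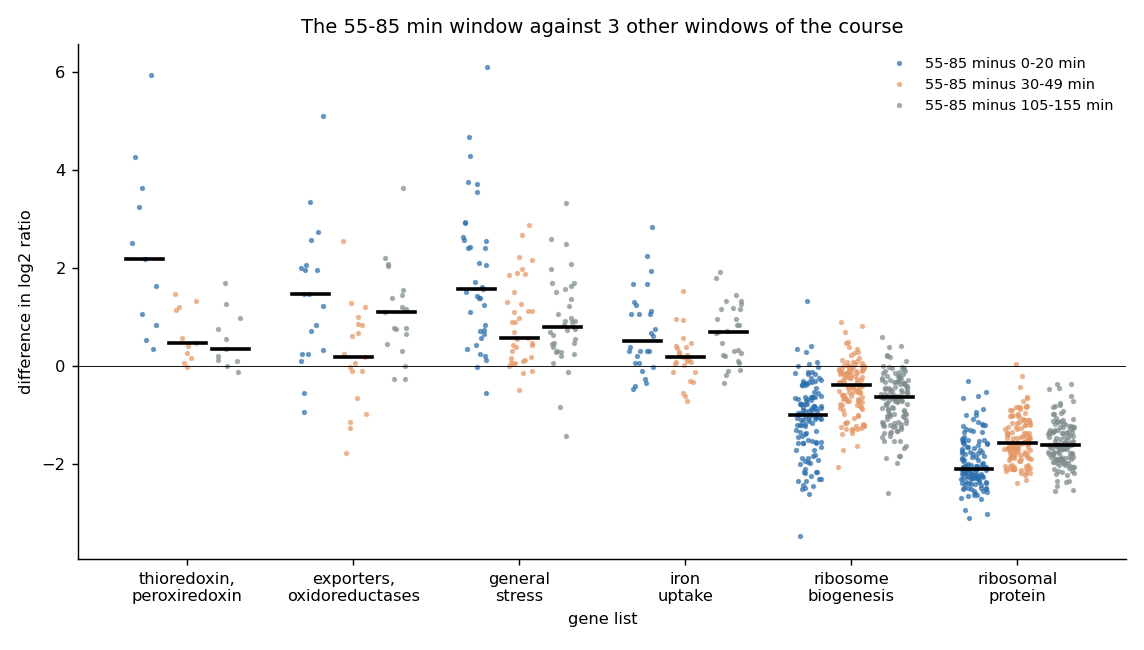
Difference in log2 ratio between 55 to 85 min and 3 other windows of peroxide I (0 to 20, 30 to 49 and 105 to 155 min) for every gene of 6 lists, 1 point per gene, with medians as black bars. Ribosomal protein genes have medians of -2.09, -1.57 and -1.61 in the 3 comparisons, and the thioredoxin list 2.19, 0.48 and 0.35.

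Set against 105 to 155 min (5 times), 139 of 5551 genes were higher in the window (2.5%) and 360 lower (6.49%), 8.99% in all. Ribosomal protein genes accounted for 119 of the falls, with a median difference of -1.61, and their median ratio, -0.83 at 105 min, was 0.47 at 155 min. Ribosome biogenesis genes were lower in 31 of 124 cases (median -0.64) and translation factors in 16 of 39 (median -0.77), with YEF3 at -2.61 ± 0.43 and NSR1 at -2.58 ± 0.44 (limma adjusted p = 0.000666 and 0.000762). RPL16B and RPS0A fell by -2.54 ± 0.39 and -2.53 ± 0.40.

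General stress genes were higher in the window in 11 of 37 cases (median 0.81), with DDR2 at 3.32 ± 0.65, and of the other named genes HSP30 differed by 3.65 ± 0.78, OSI1 by 3.62 ± 0.77 and RGI1 by 3.16 ± 0.52. Exporters and oxidoreductases were higher in 5 of 19 cases (median 1.10) and iron uptake genes in 8 of 28 (median 0.70). Of the 6 catalase, dismutase and cytochrome c peroxidase genes 3 were higher (50.0%, median 0.86), among them CTT1 (2.07 ± 0.63) and SOD2 (1.10 ± 0.30), and of 21 glutathione and glutaredoxin genes 5 (23.8%, median 0.45), among them ECM4 (2.73 ± 0.53) and GRX2 (1.64 ± 0.25). Of the 11 thioredoxin and peroxiredoxin genes 1 was called, TRR1 at 1.26 ± 0.35 (limma adjusted p = 0.0258). The calls of CTT1, SOD2 and TRR1 were lost without 55 min (adjusted p = 0.141, 0.0855 and 0.0927) and likewise without 70, 77, 112, 140 or 155 min, those of CTT1 and SOD2 without 120 min and that of CTT1 without the first 63 min array, at adjusted p between 0.0506 and 0.0895. With arrays scaled to 1 spread the calls of GRX2, DDR2, SOD2 and TRR1 were lost (adjusted p = 0.124, 0.0734, 0.432 and 0.597). The call of ECM4 was lost under no setting. TSA1 differed by 0.00 ± 0.27, TRX2 by 0.35 ± 0.32 and CCP1 by -0.15 ± 0.41, and none of these was called. ALD6 had a difference of -0.20 ± 0.44 from the 105 to 155 min times, against -3.09 from the first 20 min. Leaving out 70, 120 or 155 min in turn gave 316, 322 and 278 genes in place of 499. The 139 higher genes became 66, 77, 80, 79, 79 and 68 without 55, 70, 77, 120, 140 or 155 min and 53 with arrays scaled to 1 spread. Leaving out the first 63 min array gave 361 genes in all.

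**Figure D5:**
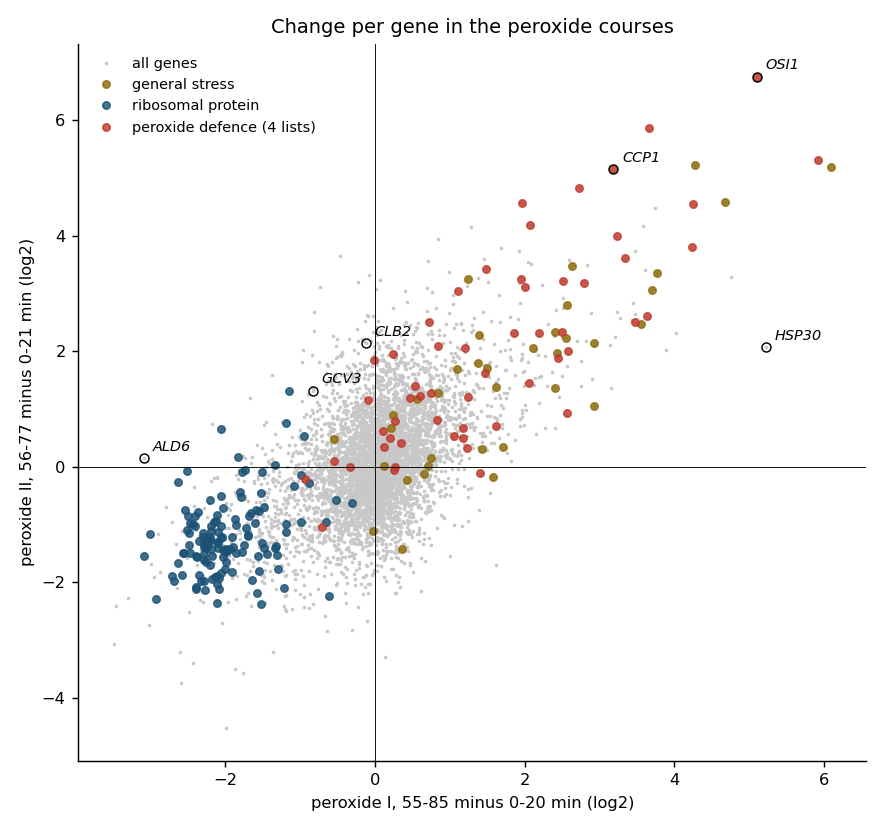
Change per gene in peroxide I (55 to 85 minus 0 to 20 min, horizontal) and in peroxide II (56 to 77 minus 0 to 21 min, vertical), log2 scale, 5493 genes (grey), with general stress, ribosomal protein and 4 peroxide defence lists coloured. Circled genes include OSI1 (5.10 and 6.75), CCP1 (3.18 and 5.16), HSP30 (5.23 and 2.08) and ALD6 (-3.09 and 0.15), each given as peroxide I and peroxide II.

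The later peroxide course offers a like comparison, on separate arrays in a table of its own, so no test was made between them. There, 496 of 5519 genes were higher at 56 to 77 min than at 0 to 21 min (8.99%) and 278 lower (5.04%), 14.0% in all. Over the 5493 genes tested in both courses, Pearson's r between the differences was 0.58, a description over genes that share a platform type and a synchronisation. Of the 401 such genes higher in peroxide I, 178 were also called higher in peroxide II, 44.4% of the peroxide I list and 36.0% of the peroxide II list. Of the 495 lower, 150 were lower in both, 30.3% of the peroxide I list and 54.3% of the other. A single gene was called in opposite directions, GCV3, a subunit of glycine decarboxylase, lower in peroxide I and higher in peroxide II. In peroxide II the 14 and 21 min arrays were scanned on another day than the other arrays compared, so scan day and window are partly tied. With the scan day as a covariate, peroxide II had 202 calls in place of 774. The overlaps given here come from the fit without it.

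The defence genes TSA2, OSI1, CCP1 and GSH1 were called in both courses, and the catalase CTT1 in peroxide I but not in peroxide II. TSA2 differed by 5.93 ± 0.79 in peroxide I and 5.31 ± 0.81 in peroxide II, OSI1 by 5.10 ± 0.89 and 6.75 ± 0.84, CCP1 by 3.18 ± 0.47 and 5.16 ± 0.89, and GSH1 by 1.11 ± 0.32 and 3.05 ± 0.77. In peroxide II the call of GSH1 was lost without 0 min (limma adjusted p = 0.083) and with the scan day as a covariate (0.0584). Of the exporters and oxidoreductases 9 of 19 rose in peroxide I (median 1.48) and 13 of 18 in peroxide II (median 2.30). Of the chaperones 18 of 28 rose in peroxide I and 7 of 28 in peroxide II, where HSP30 differed by 2.08 ± 0.74 (limma adjusted p = 0.0584, and 0.0428 without 77 min). HSP30 was also called there with arrays scaled to 1 spread (limma adjusted p = 0.0441) and with array weights (0.0067). The groups fitted alone (0.0435) and the first scan day alone (0.0218) gave a call as well. Ribosomal protein genes fell in 124 of 133 cases in peroxide I and in 68 of 134 in peroxide II, with medians of -2.09 and -1.31. ALD6 had a difference of 0.15 ± 0.55 (adjusted p = 0.896), and CLB2, not called in peroxide I, rose by 2.14 ± 0.42 (adjusted p = 0.00107). Whether any of these differed between the courses was not tested.

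In menadione I, whose oxidant makes superoxide by redox cycling, the matching windows (55, 70, 77 and 85 min against 0, 14 and 20 min) gave 68 higher genes of 5552 (1.22%) and 38 lower (0.684%), 1.91% in all. Pearson's r with the peroxide I differences was 0.60 over 5550 genes. Higher in both were 50 genes, 12.4% of the peroxide I list and 73.5% of the menadione list, and lower in both were 28, 5.65% of the peroxide I list and 73.7% of the menadione list. None was called in opposite directions. In menadione I 6 of 11 thioredoxin and peroxiredoxin genes rose (median 2.12) and 8 of 19 exporters and oxidoreductases (median 1.50), with TSA2 at 5.48 ± 0.56, GPX2 at 4.83 ± 0.60 and GRE2 at 5.15 ± 0.67 (limma adjusted p = 4.72e-05, 0.0004 and 0.000635). Only 14 of 133 ribosomal protein genes fell there, with a median of -1.12, and 5 of 37 general stress genes rose, with a median of 1.35. FIT3, raised in both peroxide courses, had a difference of 0.11 ± 0.44 in menadione I (adjusted p = 0.946), and ALD6 one of 0.86 ± 0.54 (adjusted p = 0.509). Leaving out 0, 14, 20, 70 or 85 min of the menadione course in turn gave 70, 32, 33, 40 and 48 genes in place of 106.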

How the data were processed

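The values were deposited by the authors as 3 tables of processed array values, 1 column per array, read here as log2 ratios of Cy5 over Cy3. The labels name the dyes, while log base, sign and normalisation are not given in the sources used here. The peroxide I table held 9984 probes on 23 arrays, with 4.08% to 10.7% of values missing per array, of which 6625 probes named 1 gene (5553 genes, 6620 symbols updated through RefSeq) and 3359 none. Each array was centred on its median (-0.21 to 0.22 before centring), probes of a gene were averaged, then repeated arrays of a time. Genes with values in at least 75% of the arrays and 2 per group were kept.

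Windows of the course were fitted together with limma 3.58.1 (lmFit and eBayes, R 4.3.3) with no covariate, and the Benjamini-Hochberg adjustment ran over every gene tested, with calls made at an adjusted p under 0.05. Peroxide II and menadione I were fitted each in its own table. The labels do not say that the times came from separate cultures. The number of arrays limits the precision. The method was tested first on simulated data with independent noise at each time and known shifts in some genes. Those data held no trend between times, so they do not show how the p-values behave in a real course.

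The windows, the 26 gene lists and the regulators were chosen with earlier results of these data known. Named genes were the 12 largest rises and 12 largest falls past the threshold with a value at all 8 times, no overlap between windows and a standard symbol, up to 4 per direction in the comparisons with other windows of the course, up to 4 called members per list, and 34 listed regulators and marker genes of which 32 were measured; any other gene was named after its value was seen. Alternatives covered centring, scaling, filters, probe summary, array weights, fit groups, repeated arrays, window limits and leaving out each time; those without both arrays of 20 and 63 min, or without the first 63 min array (with or without the 20 min repeat), were chosen after seeing the data.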

Additional observations from a re-analysis of the deposited data

Results flagged for a closer look

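Among the 5 times of 55 to 85 min, 50 genes and lists were tested for a single value that stood apart from the other 4, by Dixon's criterion for 5 values (0.71), and 5 did so; chance alone marks about 1 in 20. PNC1 had its lowest value at 63 min (2.57), with the other 4 times between 3.57 and 3.89, and PRX1 likewise at 63 min (2.62), with the others between 4.72 and 5.08. RPL9A was highest at 55 min (-0.69), with the others between -2.58 and -2.34. The exporters and oxidoreductases had a median of 3.32 at 55 min, above the 0.86 to 1.49 of the other times, and the M/G1 genes a median of -1.46 at 55 min, below the -0.87 to -0.73 of the others. The 63 min values are means of the repeated arrays, which correlated at 0.41, and the part of either array in them was not tested.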

How the results depend on the processing

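No paired analysis was possible because the labels give no replicate numbers that link times across windows. Of 2944 values of named genes under the alternatives, 2759 kept their direction and side of the threshold, 181 lost their call, 4 gained one and none reversed; 71 of the 109 named genes called against the first 20 min were called under every alternative that tested them (22 at most). The 900 calls against the first 20 min became 468 with 77 and 85 min alone as the window and ran from 650 to 1015 when single times were left out. The 245 calls against 30 to 49 min became 155 with arrays scaled to 1 spread, 514 with array weights, 18 with the groups fitted alone and 153 with the repeats alone, and ran from 109 (without 30 min) to 510 (without 49 min). Without centring, that comparison's median of all genes moved by 0.15, and its calls were 142 higher and 129 lower in place of 63 and 182; they were 49 and 60 without 30 min, 111 and 177 without 63 min, 59 and 94 with the repeats alone, and 67 and 112 without the first 63 min array. The 499 calls against 105 to 155 min became 227 with scaling and 943 with array weights (373 higher, 570 lower), and ran from 278 to 542 with single times left out. Within the window array weights gave 9 calls in place of 0, and leaving out single times 0. The 774 calls of peroxide II became 202 with the scan day as a covariate and 381 on the first scan day alone, and ran from 495 (without 56 min) to 697. The 106 calls of menadione I became 68 with scaling and 247 with array weights (129 higher, 118 lower), and ran from 32 to 96. The causes were not tested.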

Other observations

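Of the genes called between 55 to 85 min and 0 to 20 min, 265 of the 404 that rose and 259 of the 496 that fell belonged to none of the 26 lists. The share of all tested genes outside the lists is not given here. The counts therefore do not show whether called genes lay outside the lists more or less often than other genes. The largest changes outside the lists, among genes not already named above, were picked after their values were seen. They have a standard symbol, values at all 8 times and no overlap between windows. Larger changes outside the lists, such as those of FMP16, RGI1, HPT1, URA7 and GUA1, are given above. The rises were RSF1, a regulator of respiratory growth (3.61 ± 0.70), STF2, a hydrophilin linked to the mitochondrial ATPase (3.44 ± 0.60), HSP31, a methylglyoxalase of the DJ-1 family (3.28 ± 0.62), AIM17 (3.23 ± 0.63), NCE102, a plasma membrane protein of eisosomes (3.21 ± 0.43), and ALD2, a cytosolic aldehyde dehydrogenase (2.76 ± 0.56). NCE102 had ratios of 1.59, 1.37, 1.80, 1.88 and 1.50 in the window, against -2.12, -1.51 and -1.13 at 0, 14 and 20 min, so that much of its difference lay in low early values, whereas RSF1 read 4.38, 2.22, 3.64, 3.77 and 3.18, against 0.10, -0.65 and 0.04.

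The falls included NIP7 (-2.65 ± 0.38), BFR2 (-2.26 ± 0.44) and SAS10 (-2.25 ± 0.35), which act in ribosome assembly but were not in that list, and APT1, the adenine phosphoribosyltransferase (-2.38 ± 0.71), whose 0 min value of 2.14 stood above -0.47 and 0.27 at 14 and 20 min. TOD6, a repressor that binds promoters of ribosome biogenesis genes, read -2.98, -1.16, -2.00, -2.06 and -1.96 in the window, against 0.67, -0.25 and 0.79, a difference of -2.44 ± 0.39 (limma adjusted p = 0.000205). YGK1 differed by -2.42 ± 0.42.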
